A study of Mus musculus with 9 samples.

Results

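The ERBB receptors and the EGF-family ligands that bind them were followed as a group of 10 genes, made up of 4 receptors (Egfr, Erbb2, Erbb3 and Erbb4) and 6 ligands (Areg, Ereg, Hbegf, Tgfa, Btc and Nrg1). They were named as a family and looked up by symbol among the 55450 Ensembl genes of the count table, and all 10 were among the 19357 genes with enough counts to be tested. The counts came from RNA-sequencing of live EYFP+ cells sorted from mammary glands of adult nulliparous mice, with 3 libraries for each of 3 genotypes. Every mouse carried K8CreERT2, a tamoxifen-inducible Cre driven by the Krt8 promoter, together with the lsl-EYFP reporter, so that EYFP marks luminal cells in which Cre was active and their progeny. Control mice (lsl-EYFP; K8CreERT2) had no floxed gene, LATS1/2-KO mice (LATS1/2f/f; lsl-EYFP; K8CreERT2) had floxed alleles of both Hippo kinases, and LATS1/2-Sox9-KO mice had Sox9f/f alleles on top of these. All 3 groups received 5 daily injections of 2 mg of tamoxifen, and cells were sorted 7 days after the last one. Total counts were 44167762 to 47003587 per library in control, 50508666 to 61745346 in LATS1/2-KO and 55503365 to 61967651 in LATS1/2-Sox9-KO.

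ERBB receptors are transmembrane tyrosine kinases that pair with one another once a ligand is bound. EGFR binds the EGF-like ligands such as amphiregulin and TGF-alpha, ERBB3 binds neuregulins but has little kinase activity of its own, ERBB4 binds neuregulins and several EGF-like ligands, and ERBB2 has no known ligand and serves as a partner for the others. In the mammary gland, amphiregulin is made by hormone-sensing luminal cells downstream of the estrogen receptor and drives ductal growth, neuregulin and ERBB4 are tied to alveolar differentiation, and ERBB2 and EGFR are known for their amplification or high levels in subsets of breast cancer. The comparisons here asked which receptors and ligands differ in luminal cells after deletion of LATS1/2 and whether co-deletion of Sox9 alters them.

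The labels were first checked against the targeted genes. Lats1 had normalized counts (counts scaled by the TMM method of edgeR to the mean effective library size) of 5672 to 5940 in the control libraries, 1923 to 2336 in those labelled LATS1/2-KO and 1709 to 2058 in those labelled LATS1/2-Sox9-KO. Lats2 did not fall, with 865 to 1220, 1256 to 1723 and 1240 to 1957 in the same order. Sox9 ran from 19948 to 23313, from 7205 to 12433 and from 6460 to 8812, so the libraries with and without floxed Sox9 overlapped. Whole-gene counts include transcripts that lost only the floxed exons, and exon deletion was not examined here, so both deletion groups are named by their labels. Krt18 was the most abundant of 4 luminal keratins in every library, with a mean of 248376 in control beside 672 for the basal keratin Krt14. The means of Krt18 and Krt14 were 406610 and 177575 in the libraries labelled LATS1/2-KO. They were 715645 and 235581 in those labelled LATS1/2-Sox9-KO. Krt8, Krt18 and Krt7 rose in both deletion groups, while Krt19 fell in the libraries labelled LATS1/2-KO. Control replicate 3 and LATS1/2-Sox9-KO replicate 1 stood apart within their groups. Their counts differed from those of the 2 other libraries of the group by a chi-square per gene of 118 to 133 and of 88.5 to 125, against 29.8 and 18.1 between those other libraries. The libraries labelled LATS1/2-KO differed by 66.0 to 145.

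Promoter sequence was available in RefSeq (GRCm38.p6) for 6 of the 10 genes, and 3 of these are shown because they stand for the receptor that rose (Egfr), the ligand with the largest loss of transcript (Areg) and the sole member window with a TEAD core (Erbb2). The 250 bases before the transcription start are given in the direction of transcription. Capitals mark matches on either strand to 6 motifs. GGAATG is the core bound by TEAD, the DNA-binding partners of YAP/TAZ. For AP-1 the motif was TGANTCA, where N is any base. The estrogen response element was searched as GGTCA and TGACC with any 3 bases between them. ACAAAG is a core bound by SOX proteins. The core of the cAMP response element, TGACGT, and the TATA box, TATAAA, were added after the sequences were seen.
Egfr promoter, chr11:16751953-16752202, plus strand: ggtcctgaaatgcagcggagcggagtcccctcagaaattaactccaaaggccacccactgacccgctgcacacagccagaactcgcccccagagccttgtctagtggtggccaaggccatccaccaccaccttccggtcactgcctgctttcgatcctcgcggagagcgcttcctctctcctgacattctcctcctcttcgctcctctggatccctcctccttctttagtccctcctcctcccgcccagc
Erbb2 promoter, chr11:98412234-98412483, plus strand: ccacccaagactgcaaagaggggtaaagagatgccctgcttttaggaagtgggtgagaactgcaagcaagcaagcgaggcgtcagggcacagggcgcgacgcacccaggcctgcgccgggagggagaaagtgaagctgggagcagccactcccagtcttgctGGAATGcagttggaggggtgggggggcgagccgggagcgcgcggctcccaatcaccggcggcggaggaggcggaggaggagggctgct
Areg promoter, chr5:91139349-91139598, plus strand: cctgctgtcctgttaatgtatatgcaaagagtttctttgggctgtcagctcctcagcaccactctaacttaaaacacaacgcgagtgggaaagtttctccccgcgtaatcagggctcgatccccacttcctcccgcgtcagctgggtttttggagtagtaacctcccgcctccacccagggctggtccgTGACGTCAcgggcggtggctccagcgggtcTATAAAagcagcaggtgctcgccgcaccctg
Over the full windows of 300 bases, which run 50 bases past the start, the Erbb2 window held GGAATG at position -88 from the start, a match found in 14.7% of all 32851 windows of the table. In the Areg window, TGACGT matched on both strands in overlapping positions (7.51% of all windows), and TATAAA lay at -31 (13.6% of all windows). No match to the AP-1 motif (7.81% of all windows), the estrogen response element (0.07%) or the SOX core (18.7%) was found in any of the 6 member windows, and the Egfr, Erbb4, Tgfa and Btc windows held none of the searched motifs. The match in Erbb2 describes these letters in a gene that fell, and distal elements were not searched.

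Against control, all 10 genes differed in the libraries labelled LATS1/2-KO, 4 of them higher (Egfr, Ereg, Hbegf and Nrg1) and 6 lower (Erbb2, Erbb3, Erbb4, Areg, Tgfa and Btc). A gene was called when it changed by more than 2-fold with an adjusted p of 0.05 or less (edgeR's quasi-likelihood test, Benjamini-Hochberg). All 10 were, also when any 1 library was left out, against 34.6% of all genes tested (17.1% higher and 17.5% lower, and 55.7% by the adjusted p alone). In each of the 10 the libraries of the groups did not overlap, which held for 61.6% of all genes tested. The median log2 fold change of the 10 was -1.39, beside 0.04 over all genes tested. In bulk libraries, fewer cells of a type and less RNA per cell cannot be told apart.

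**Figure D1:**
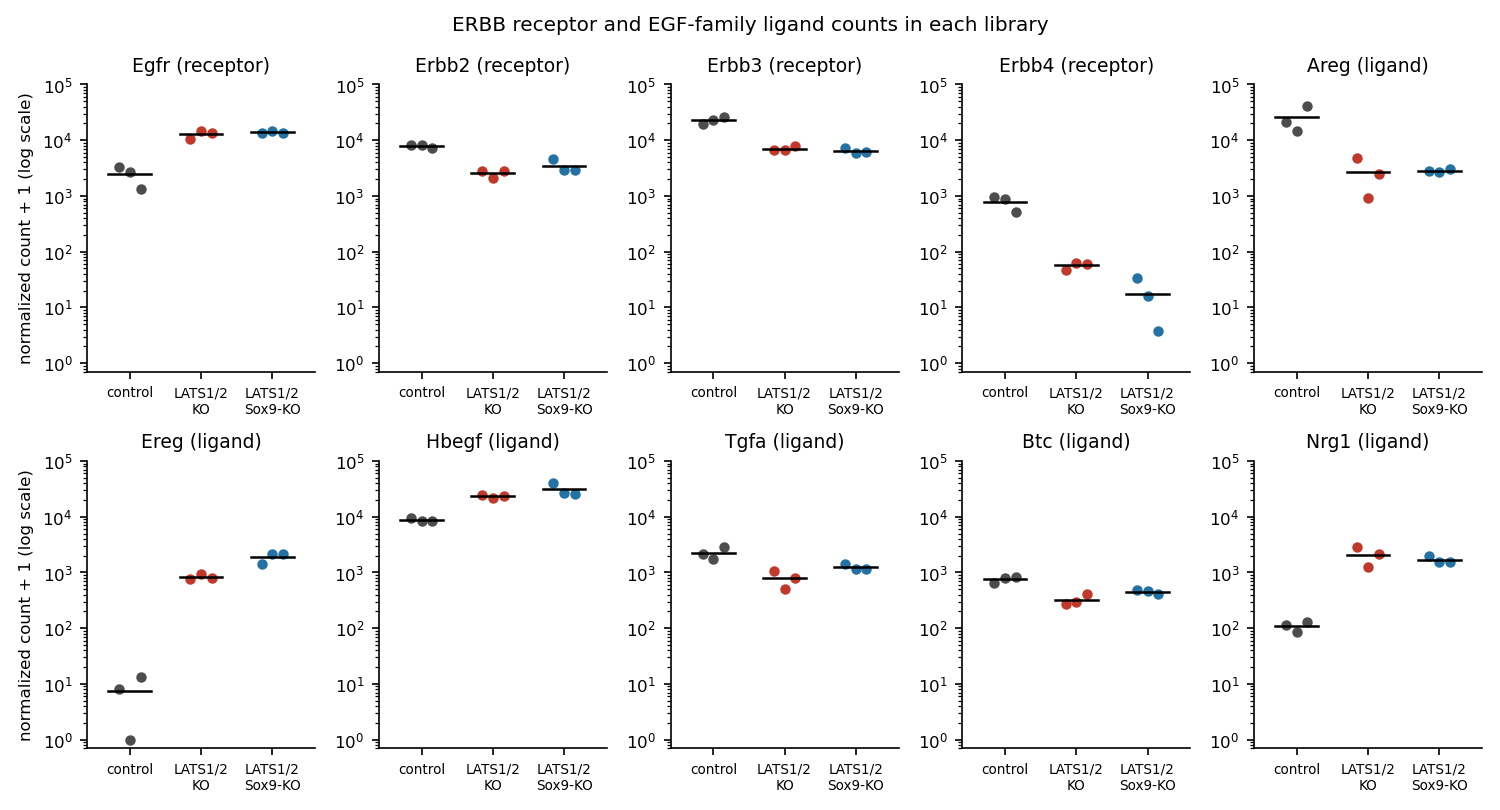
Normalized count plus 1 (log scale) of each receptor and ligand gene in the 9 libraries, by genotype label; points are libraries in order of replicate number and lines are group means. Egfr, Ereg, Hbegf and Nrg1 sit higher in both deletion groups than in control, and the other 6 genes sit lower.

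Among the receptors, Egfr was the one that rose. Egfr (ENSMUSG00000020122, chr11:16752203-16918158 of GRCm38) had 3249, 2737 and 1355 normalized counts in control replicates 1 to 3. The libraries labelled LATS1/2-KO had 10384, 14426 and 13664, and those labelled LATS1/2-Sox9-KO had 13394, 14630 and 13601. Every deletion library thus held more than 3 times the count of any control library, and the lowest control value was that of replicate 3. Egfr was 5.24-fold higher than control in libraries with the LATS1/2-KO label (log2 fold change 2.39, standard error (SE) 0.28, edgeR adjusted p = 6.78e-05).

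Erbb3, the neuregulin receptor with an impaired kinase, was the most abundant receptor in control by count and per length. Erbb3 (ENSMUSG00000018166, chr10:128567523-128589652) had 19787, 22662 and 26266 normalized counts in control and 6771, 6568 and 7943 in the libraries labelled LATS1/2-KO. It was 3.23-fold lower (log2 fold change -1.69, SE 0.14, edgeR adjusted p = 9.34e-06). In the libraries labelled LATS1/2-Sox9-KO the values were 7229, 5839 and 6168, within and below the range of those labelled LATS1/2-KO.

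Erbb2, the ligandless partner receptor, had 8076, 8234 and 7144 normalized counts in control and 2750, 2061 and 2782 in the libraries labelled LATS1/2-KO, a log2 fold change of -1.63 (SE 0.20, edgeR adjusted p = 8.1e-05). Erbb2 (ENSMUSG00000062312, chr11:98412470-98437716) shares 9 exon bases with Mien1 on the opposite strand. The named library kit (TruSeq RNA v2) does not mark strand, and the Methods call the counted pairs same-strand without saying of what, so such reads may not be separable. Among the libraries labelled LATS1/2-Sox9-KO, replicate 1 stood above the others, at 4643 against 2948 in both of the remaining libraries.

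The deepest loss among the receptors was that of Erbb4, a neuregulin receptor of the differentiating alveolus. Erbb4 (ENSMUSG00000062209, chr1:68032186-69108059) had 958, 864 and 523 normalized counts in control. It had 45.1, 62.7 and 60.2 in the libraries labelled LATS1/2-KO and 32.5, 14.9 and 2.73 in those labelled LATS1/2-Sox9-KO, the last of which rests on 3 raw counts. Its level was thus low but above 0 in all deletion libraries. The log2 fold change from control to the libraries labelled LATS1/2-KO was -3.80 (SE 0.56, edgeR adjusted p = 0.000296), a 13.9-fold difference.

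Levels of different genes were compared as normalized count per kilobase of exon (exon length merged over the annotated transcripts, which overstates the length of a gene expressed from few of them). On this scale the order in control was Erbb3, Erbb2, Egfr and Erbb4, at 3807 ± 540, 1501 ± 113, 216 ± 86.5 and 63.3 ± 18.5 per kilobase (SD, n = 3), with no overlap between neighbors. In the libraries labelled LATS1/2-KO, Erbb3 at 1179 ± 123 and Egfr at 1132 ± 190 per kilobase (SD, n = 3) overlapped, while Erbb2 at 486 ± 78.1 and Erbb4 at 4.53 ± 0.77 (SD, n = 3) lay below them. As a share of the summed receptor level per kilobase, Egfr made up 3.94% ± 1.77 in control and 40.3% ± 5.28 in the libraries labelled LATS1/2-KO (SD, n = 3), and Erbb3 made up 67.9% ± 5.53 and 42.1% ± 2.29 (SD, n = 3). The summed receptor level itself was 5587 ± 353 per kilobase in control and 2802 ± 248 in the libraries labelled LATS1/2-KO (SD, n = 3). The ratio of Egfr to Erbb3 per kilobase ran from 0.027 to 0.087 over the control libraries and from 0.815 to 1.33 over the 6 deletion libraries.

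**Figure D2:**
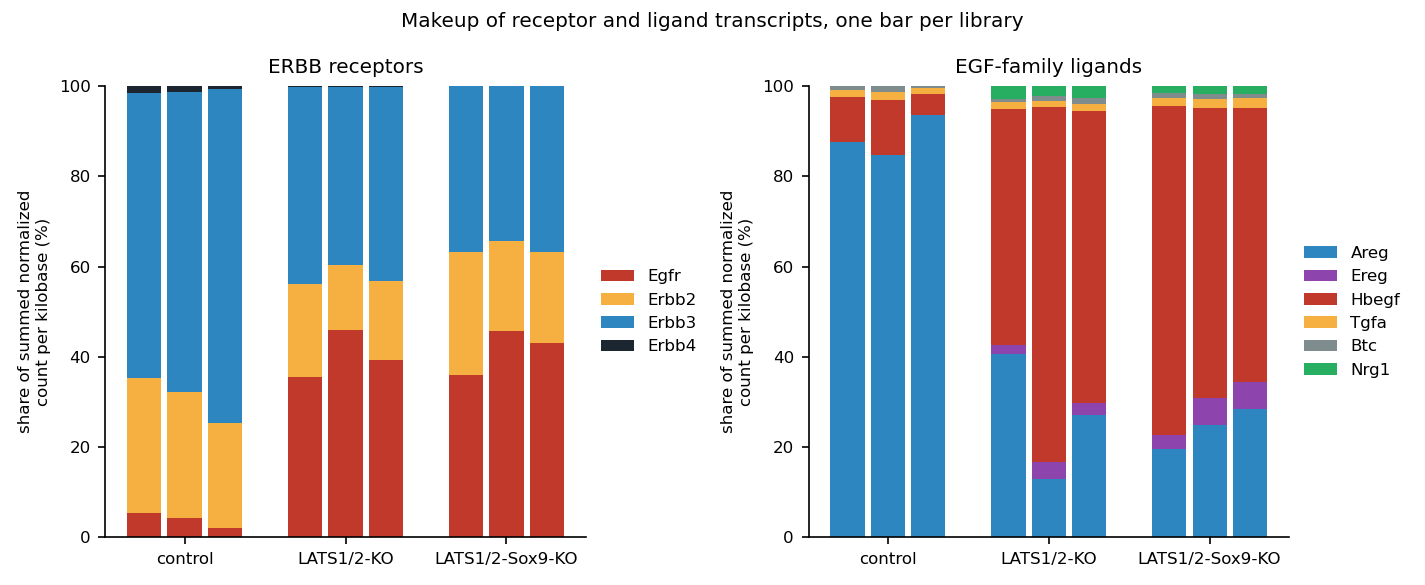
Share of each gene in the summed normalized count per kilobase of exon (percent), for the 4 receptors and the 6 ligands, with 1 bar per library in order of replicate number. Erbb3 fills most of the receptor bars and Areg most of the ligand bars in control, while Egfr and Hbegf take 35.6% to 46.1% and 52.3% to 78.7% in the libraries labelled LATS1/2-KO.

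The ligands changed in both directions, 3 up and 3 down. Areg, which encodes the EGFR ligand amphiregulin, was the most abundant ligand gene of control. Areg (ENSMUSG00000029378, chr5:91139599-91148432) had 21128, 14833 and 41861 normalized counts in control replicates 1 to 3, so that replicate 3 held more than the sum of the other libraries. The libraries labelled LATS1/2-KO had 4763, 903 and 2523, and those labelled LATS1/2-Sox9-KO had 2772, 2643 and 3001. Spread was wide in control and in the LATS1/2-KO group, but every deletion library lay below every control library. The log2 fold change of Areg from control to the libraries labelled LATS1/2-KO was -3.25 (SE 0.56, edgeR adjusted p = 0.000768), and it was -3.92 without LATS1/2-KO replicate 1.

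Tgfa and Btc, which encode further ligands of EGFR (betacellulin also binds ERBB4), fell less. Tgfa (ENSMUSG00000029999, chr6:86195223-86275719) had 2159, 1778 and 2886 normalized counts in control and 1045, 508 and 804 in the libraries labelled LATS1/2-KO, a log2 fold change of -1.53 (SE 0.26, edgeR adjusted p = 0.000773). Btc (ENSMUSG00000082361, chr5:91357261-91402994) had 655, 788 and 840 against 269, 294 and 402, a log2 fold change of -1.24 (SE 0.20, edgeR adjusted p = 0.000501). When a fold change of 2 was itself the null value (edgeR's glmTreat), Btc no longer passed (adjusted p = 0.151). Its groups did not overlap, with 402 against 655 as the nearest pair of libraries.

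Hbegf, encoding heparin-binding EGF, was the most abundant ligand to rise. Hbegf (ENSMUSG00000024486) had 9627, 8494 and 8388 normalized counts in control, 24325, 21979 and 23895 in the libraries labelled LATS1/2-KO and 40842, 27020 and 25524 in those labelled LATS1/2-Sox9-KO. It was 2.65-fold higher than control in libraries with the LATS1/2-KO label (log2 fold change 1.40, SE 0.17, edgeR adjusted p = 8.94e-05). The libraries of each group lay close together except for LATS1/2-Sox9-KO replicate 1.

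Nrg1, encoding a neuregulin that binds ERBB3 and ERBB4, was low in control and rose in both deletion groups. Nrg1 (ENSMUSG00000062991, chr8:31814551-32884029) had 113, 86.2 and 126 normalized counts in control, 2816, 1272 and 2153 in the libraries labelled LATS1/2-KO and 1965, 1541 and 1561 in those labelled LATS1/2-Sox9-KO. The lowest deletion library thus held 10 times the highest control library. The fold difference from control to the libraries labelled LATS1/2-KO was 19.2 (log2 fold change 4.27, SE 0.30, edgeR adjusted p = 4.74e-06). Nrg1 shares 482 exon bases with the long noncoding gene Gm26578 on the opposite strand, and the same limit holds there.

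Ereg, encoding epiregulin, a ligand of EGFR and ERBB4, was nearly absent from control. Ereg (ENSMUSG00000029377, chr5:91074622-91093646, sharing 141 exon bases with the antisense gene Gm19610) had 6, 0 and 10 raw counts in the control libraries and 766, 1087 and 865 in those labelled LATS1/2-KO. As normalized counts, the latter were 768, 921 and 789, and the libraries labelled LATS1/2-Sox9-KO had 1431, 2122 and 2112. The 3 groups were fully separated, lowest in control and highest with Sox9 co-deletion. The log2 fold change from control to the libraries labelled LATS1/2-KO was 7.0 (SE 0.52, edgeR adjusted p = 5.66e-06). Its size rests on the few control counts and became 6.40 without control replicate 2 and 7.84 without control replicate 3.

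Ereg, Areg and Btc lie in a row on chromosome 5 together with Epgn, which encodes epigen. Ereg ends 46.0 kb before Areg starts, and Areg ends 208.8 kb before the nearest end of Btc, which is on the opposite strand. Genes on this stretch moved in both directions, Ereg upward and Areg and Btc downward. Epgn, 39.4 kb before Ereg, did not pass the test (log2 fold change -0.68, adjusted p = 0.301 from edgeR). It had 713, 676 and 3121 normalized counts in control and 1240, 711 and 867 in the libraries labelled LATS1/2-KO. The higher control mean rests on replicate 3, and the other 2 control libraries lay below all libraries labelled LATS1/2-KO except for 1 pair (713 against 711).

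Per kilobase of exon, Areg stood at 21350 ± 11640 in control and Hbegf at 1828 ± 142 (SD, n = 3), and Tgfa, the next of the 6, at 350 ± 86.8. In the libraries labelled LATS1/2-KO the order was reversed, with Hbegf at 4841 ± 258 and Areg at 2247 ± 1595 per kilobase (SD, n = 3), and no library overlapped between them. Nrg1 at 201 ± 74.9 and Ereg at 200 ± 20.1 per kilobase (SD, n = 3) followed among the 6, and these overlapped. As a share of the summed ligand level, Areg went from 88.6% ± 4.54 in control to 26.9% ± 13.9 in the libraries labelled LATS1/2-KO, and Hbegf from 8.97% ± 3.85 to 65.2% ± 13.2 (SD, n = 3). The summed ligand level was 23709 ± 11689 per kilobase in control and 7681 ± 1926 in the libraries labelled LATS1/2-KO (SD, n = 3).

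Markers of cell types were read beside these values, and their part in the results was not tested. The counts of markers that rose or fell stand beside 28.7% higher and 27.1% lower among all genes tested. Of 9 hormone-sensing luminal markers, 7 fell in the libraries labelled LATS1/2-KO, and their summed normalized count was 258179 to 346628 in control, 19535 to 31958 in those libraries and 45819 to 66820 in those labelled LATS1/2-Sox9-KO. Prlr, the prolactin receptor, was the most abundant of them in control. Ly6a, which encodes Sca1, was the most abundant of the list in 5 of the 6 deletion libraries. Without it, a choice made after the values were seen, the sums of the other 8 markers in replicates 1 to 3 were 274798, 247002 and 329547 in control. They were 24245, 6005 and 12248 in the libraries labelled LATS1/2-KO and 9465, 7690 and 11018 in those labelled LATS1/2-Sox9-KO. Within each group these sums had the same order over the 3 libraries as Areg, whereas with Ly6a they did so in control alone. As Ly6a was left out with the values known, this order cannot show a link to Areg, and none was tested. Within the list, Esr1, the estrogen receptor upstream of Areg, had means of 9731 in control and 862 in the libraries labelled LATS1/2-KO (a log2 difference of -3.50, edgeR adjusted p = 1.93e-05), and Pgr, the progesterone receptor, had a log2 fold change of -5.91 (adjusted p = 2.99e-05 from edgeR). In the libraries labelled LATS1/2-Sox9-KO most of the full sum was Ly6a, which rose against LATS1/2-KO (a log2 difference of 2.21, edgeR adjusted p = 0.0129).

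Of 10 basal and myoepithelial markers, 5 rose and 3 fell in the libraries labelled LATS1/2-KO, and the summed level went from 5509 to 6779 in control to 158324 to 271311, most of it Krt14. The basal regulator Trp63 fell, with 373, 2153 and 2133 normalized counts in control and 40.7 to 70.2 in those libraries. Of 9 fibroblast markers, 5 rose and 1 (Dcn) fell in the libraries labelled LATS1/2-KO, and they had a summed level of 2468 to 9593 in control, 2816 to 10338 in LATS1/2-KO and 3028 to 7696 in LATS1/2-Sox9-KO, and Pdgfra was at 299 to 418, 192 to 368 and 35.3 to 162. The sum was mostly Dcn in control, while Col3a1, Col1a1, Col1a2, Lum and Thy1 rose together with Nrg1 in the libraries labelled LATS1/2-KO, with Col3a1 going from a mean of 228 to 2006 and a list median log2 fold change of 2.16. Summed immune markers were 757 to 1164 in control and 2111 to 4418 in LATS1/2-KO, and Csf1r made up 1753 to 2804 of the latter while the leukocyte gene Ptprc was at 17.4 to 55.6 in control and 10.9 to 166 in LATS1/2-KO. Of the immune list, Csf1r alone passed the test, and Cd3e, a T cell gene, had 0 counts in all 9 libraries. Endothelial markers summed to at most 772 in any library, and 1 of 6 (Kdr) rose. Adipocyte markers summed to at most 12.5 in control and were 7.0, 821 and 430 in LATS1/2-KO replicates 1 to 3, the first within the control range, and 3 of 4 rose. Among Schwann cell markers, Mbp was the most abundant in every library, at 3228 to 6774. Of 8 luminal progenitor markers, 1 rose and 3 fell in the libraries labelled LATS1/2-KO, beside 28.7% higher and 27.1% lower among all genes tested. In those labelled LATS1/2-Sox9-KO, 6 of the 8 were called lower than control, beside 19.6% of all genes tested. Against LATS1/2-KO, 2 of the 8 were called lower, beside 2.16%. Their summed level was 142868 to 200832 in control, 93129 to 121769 in LATS1/2-KO and 54920 to 61844 in LATS1/2-Sox9-KO.

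Around the receptors and their ligands, the other genes of the pathway were examined by role. Of 4 tested further ligands, Nrg2 and Nrg4 fell and none rose, beside 27.1% lower and 28.7% higher among all genes tested. Nrg4 had means of 1209 normalized counts in control and 24.2 in libraries with the LATS1/2-KO label (log2 fold change -5.66, SE 0.61, edgeR adjusted p = 4.5e-05), and Nrg2 had 286 and 65.6 (log2 fold change -2.12, SE 0.30, edgeR adjusted p = 0.000231). The neuregulins therefore divided, with Nrg1 up and these relatives down. Egf itself was low, at a mean of 32.6 in control, and did not pass the test (adjusted p = 0.72 from edgeR).

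Membrane-bound ligands are released by sheddases of the ADAM family. Of 11 tested sheddases and their regulators, 4 rose and 3 fell in the libraries labelled LATS1/2-KO, beside 28.7% and 27.1% of all genes tested. Adam17, the main sheddase of amphiregulin and heparin-binding EGF, had means of 5532 and 6408 normalized counts and did not pass the test (log2 fold change 0.21, adjusted p = 0.197 from edgeR). Adam10, which sheds betacellulin, fell from 31474 to 10403 (log2 fold change -1.60, adjusted p = 0.00017 from edgeR), as did Adam15 (log2 fold change -2.13) and Rhbdf2, a partner of ADAM17 in its maturation (log2 fold change -1.46). Adam12 rose from 6.11 to 3776 (log2 fold change 9.29, SE 0.74, edgeR adjusted p = 7.75e-06), a size that rests on 4, 0 and 11 raw counts in control, and Adam8 from 372 to 4045 (log2 fold change 3.44). Timp3, an inhibitor of some of these proteases, rose as well, from 6017 to 119230 (log2 fold change 4.31, adjusted p = 5.44e-05 from edgeR).

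**Figure D3:**
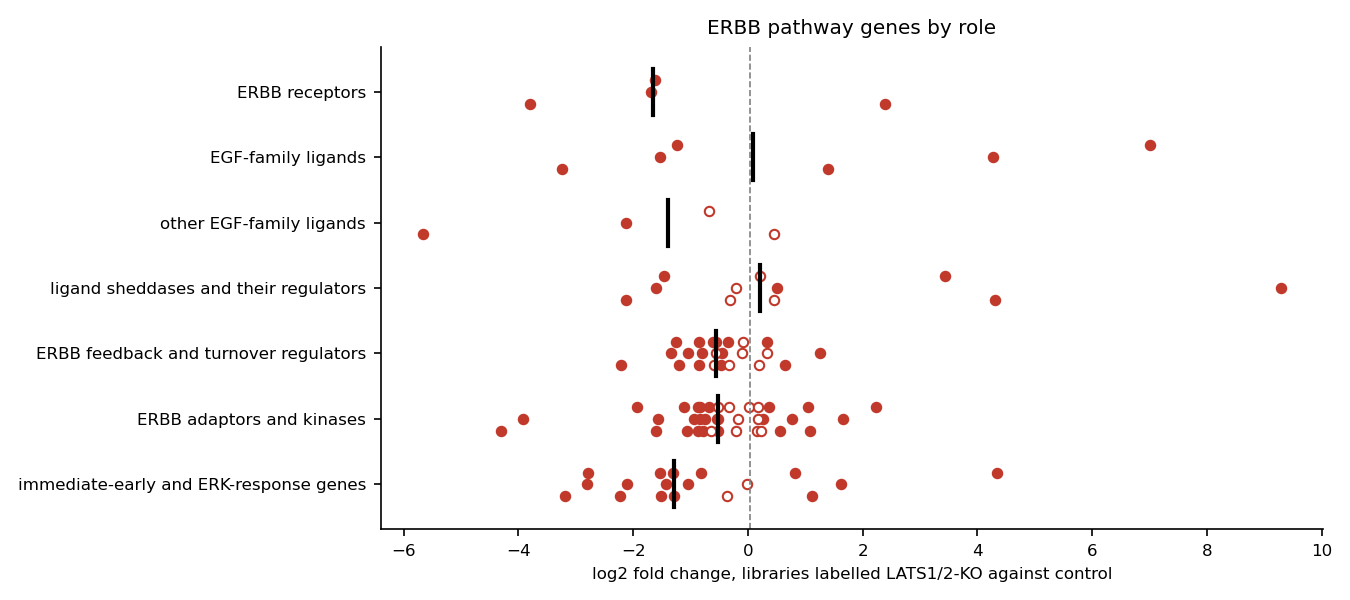
Log2 fold change of LATS1/2-KO over control for each tested gene of 7 roles in the ERBB pathway; filled points passed an adjusted p of 0.05 (edgeR), open points did not, bars are list medians and the dashed line is the median of all genes tested (0.04). The immediate-early list has a median of -1.30 and the feedback list one of -0.56.

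Genes that restrain or recycle the receptors were read next. Of 23 feedback and turnover regulators, 13 fell, 3 rose and 7 did not pass the test, beside 27.1% lower and 28.7% higher among all genes tested, with a median log2 fold change of -0.56. The largest falls were those of Spred2 (log2 fold change -2.22), Spred3 (-1.34) and Dusp5 (-1.25), which damp RAS and ERK signaling, while Lrig3 rose (1.26). Errfi1, the inducible inhibitor of EGFR and ERBB2 kinases, had means of 35518 and 23445 normalized counts and did not pass the test (log2 fold change -0.60, adjusted p = 0.0872 from edgeR). Cbl, the ligase that marks EGFR for degradation, fell by 0.79 on the log2 scale (adjusted p = 0.000655 from edgeR).

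Of 36 tested adaptors and kinases, 18 fell and 8 rose, beside 27.1% and 28.7% of all genes tested, with a median log2 fold change of -0.53. Stat5a, which acts downstream of ERBB4 and the prolactin receptor in alveolar cells, fell from a mean of 7578 to 503 normalized counts (log2 fold change -3.91, SE 0.34, edgeR adjusted p = 1.29e-05), and Stat5b fell by 1.93 on the log2 scale. The adaptor gene Shc2 fell from 1510 to 77.0 (log2 fold change -4.30). Pik3cb, a catalytic subunit of PI3K, rose from 3062 to 14378 (log2 fold change 2.23, adjusted p = 1.3e-06 from edgeR), and the GTPase gene Nras rose too (1.08). Neither Akt1 nor Ptpn11 passed the test, with log2 fold changes of 0.24 and 0.03.

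Transcripts that ERBB signaling can induce within minutes to hours through ERK were largely lower. Activity of ERBB receptors or ERK was not measured. The glands were digested and the cells sorted before lysis, and the part of this handling or of other stimuli in these levels was not tested. Of 18 immediate-early and ERK-response genes, 12 fell and 4 rose, beside 27.1% and 28.7% of all genes tested. Their median log2 fold change was -1.30, beside 0.04 over all genes tested. Etv1 (log2 fold change -3.18), Fosb (-2.81) and Egr3 (-2.79) fell most. Fosb had means of 375690 normalized counts in control and 53479 in the libraries labelled LATS1/2-KO, and Egr1 had 64810 and 13809. The genes that rose were Spp1 (4.34), Plaur (1.62), Etv4 (1.12) and Ier3 (0.83).

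When the deletion groups were compared, LATS1/2-Sox9-KO over LATS1/2-KO by label, none of the 10 genes was called, against 3.71% of all genes tested (edgeR), 1.55% higher and 2.16% lower. That share stands for 719 genes, a count that ran from 201 to 1079 without 1 library, with 0 to 1 of the 10 called. By the adjusted p alone none of the 10 passed with all libraries either, against 6.45% (3.13% higher and 3.33% lower). At an unadjusted p under 0.05 there were 6, beside 22.6% of all genes tested, and 6 of the 10 did not overlap between the groups, beside 27.9% of all genes tested. DESeq2 called Ereg (adjusted p = 2.48e-05) and Erbb4 (log2 fold change -1.74, adjusted p = 0.0076). In edgeR, Ereg had a log2 fold change of 1.19 (95% interval 0.41 to 1.98, adjusted p = 0.0755), a 2.29-fold higher level, and it passed the threshold in 5 of 17 alternative fits. Erbb4 had a log2 fold change of -1.74 (95% interval -3.03 to -0.45, adjusted p = 0.108 from edgeR) and passed in 2 of 17, among them the fit without LATS1/2-Sox9-KO replicate 1 (-2.65, edgeR adjusted p = 0.0417).

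Erbb2, Hbegf, Tgfa and Btc were each somewhat higher with Sox9 co-deletion, at log2 fold changes of 0.47, 0.41, 0.67 and 0.50. Their lower interval bounds were 0.05, 0.04, 0.09 and 0.06, and none passed after adjustment (adjusted p = 0.176, 0.181, 0.162 and 0.169 from edgeR). In each of them LATS1/2-Sox9-KO replicate 1 was the highest library of its group. Over the alternative fits the log2 fold changes went as low as 0.25, 0.19, 0.46 and 0.39. For Egfr the interval of the log2 fold change was -0.47 to 0.70, for Erbb3 -0.45 to 0.16, for Nrg1 -0.88 to 0.28 and for Areg -1.11 to 1.19. A difference of 2-fold is outside these intervals for Egfr, Erbb3 and Nrg1 and inside that for Areg, whose counts varied most. Among the wider pathway, Nrg2 was lower (log2 fold change -1.33, adjusted p = 0.0345 from edgeR), Adam8 higher (2.08, adjusted p = 0.000867) and Dusp7 higher (1.25, adjusted p = 0.0262). The ERK-response genes Egr2 (-1.65), Egr3 (-1.61) and Etv5 (-1.76) were lower, and all 6 passed both thresholds. By list, these were 1 of 4 tested further ligands, 1 of 11 sheddases and their regulators and 1 of 23 feedback and turnover regulators. Of 18 ERK-response genes 3 were called, and of 36 adaptors and kinases none was, beside 3.71% of all genes tested. Among the ERK-response genes, Plaur (0.66) and Ier3 (0.71) rose by less than 2-fold.

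**Figure D4:**
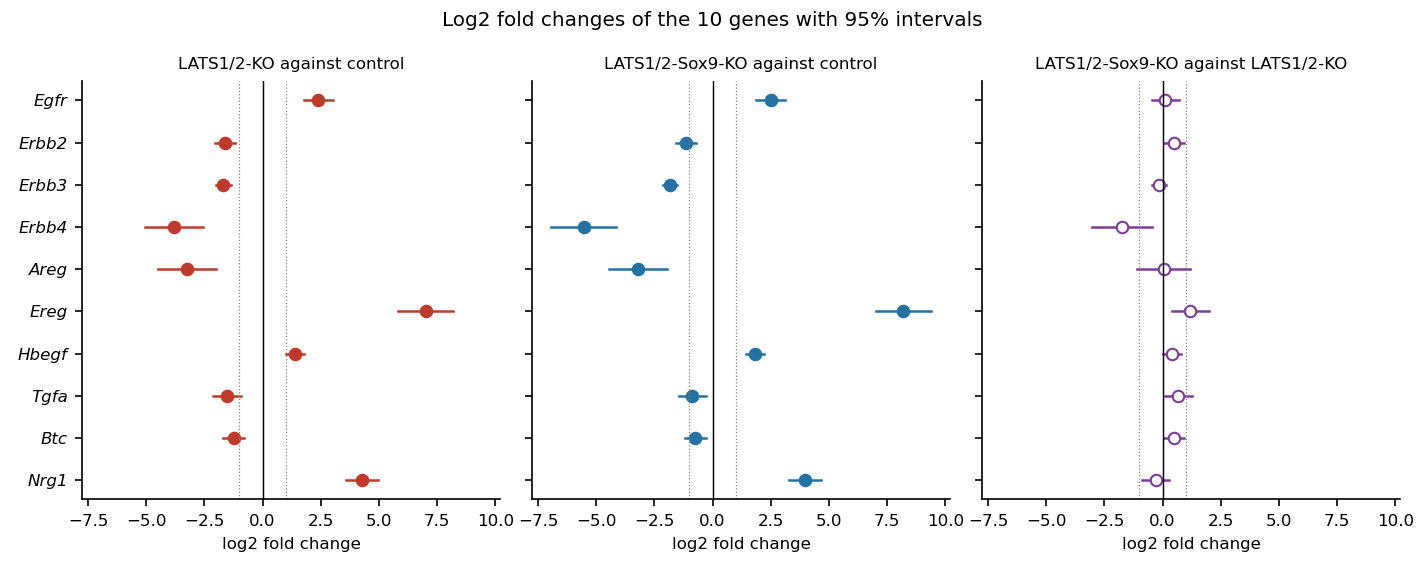
Log2 fold changes of the 4 receptor and 6 ligand genes with 95% intervals from edgeR, in 3 panels for the 3 comparisons; filled points passed an adjusted p of 0.05, open points did not, and dotted lines mark a 2-fold difference. All 10 points are filled in both control comparisons and none between the deletion groups.

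Against the same control libraries, the libraries labelled LATS1/2-Sox9-KO had the same 4 genes higher and the same 6 lower, all 10 with an adjusted p of at most 0.05 (edgeR) beside 57.9% of all genes tested (29.3% higher and 28.7% lower), and none overlapped with control, beside 68.8%. Of these, 8 were also called, 4 in each direction, beside 37.4% of all genes tested (17.8% higher and 19.6% lower). Under glmTreat against a 2-fold difference Erbb2 was no longer among them (adjusted p = 0.243). As the control libraries are shared, the comparisons are not independent. Egfr had log2 fold changes of 2.39 and 2.50, Erbb3 of -1.69 and -1.84, Erbb2 of -1.63 and -1.15 and Erbb4 of -3.80 and -5.54, first for the libraries labelled LATS1/2-KO and then for those labelled LATS1/2-Sox9-KO. Erbb4 in the latter became -6.45 without LATS1/2-Sox9-KO replicate 1. Areg had -3.25 and -3.21, Hbegf 1.40 and 1.82, Nrg1 4.27 and 3.97 and Ereg 7.0 and 8.20. The last was 7.60 without control replicate 2 and 9.06 without control replicate 3. Tgfa (-1.53 and -0.87) and Btc (-1.24 and -0.74) were those under 2-fold in the libraries labelled LATS1/2-Sox9-KO, and Tgfa missed an adjusted p of 0.05 without control replicate 3 (adjusted p = 0.0657) or without replicate 2 or 3 of those libraries (adjusted p = 0.0598 and 0.0531, all from edgeR).

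The genes whose values over the 9 libraries ran closest to each member were found by the mean absolute difference of log2 normalized counts, centered on the control mean. For Areg these were Trp53inp1 (0.23), Tbx3os2 (0.27) and Snhg11 (0.28). Erbb2 ran closest to the AP-1 gene Fosl1 (0.06), followed by Csrnp1 (0.07) and Zswim4 (0.08). For Egfr they were Tubb5 (0.17), Gm3788 (0.18) and Gm9844 (0.18), and for Nrg1 they were Edn1 (0.21), which encodes endothelin, Schip1 (0.22) and 5430437J10Rik (0.27). Ereg and Erbb4 had no gene as close as these. For Ereg the nearest were Elmod1 (0.31), Cpa4 (0.60) and Tmem178 (0.74), and for Erbb4 they were Prelp (0.32), Gm10605 (0.37) and Alpl (0.47).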

How the data were processed

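RNA from FACS-sorted EYFP+ cells was sequenced in 9 libraries. Per the labels and the Methods of the study, the authors aligned reads to mm10 with STAR 2.6.0c and deposited raw counts of uniquely aligned proper pairs per Ensembl gene from featureCounts (Subread 1.6.2), in 1 column per library. The kit named in the labels is not strand-marking, and how strand entered the counting was not checked. Symbols, positions and exon lengths came from GENCODE M21 (GRCm38), which matched 55104 of 55450 rows. From the counts, edgeR 4.0.16 in R 4.3.3 (filterByExpr, TMM, quasi-likelihood fit of 3 group means to all 9 libraries) gave log2 fold changes and Benjamini-Hochberg adjusted p-values over 19357 genes. Standard errors were the log2 fold change over the square root of F. The thresholds of the study were used for calls (more than 2-fold, adjusted p of 0.05 or less), and "rose" and "fell" rest on the adjusted p alone. An exact permutation test of 3 against 3 cannot go below 0.1. No 2 libraries of a group agreed within sampling noise, and the study gives an n of 3 per condition without saying whether each library is a separate mouse, so p-values measure the spread between these libraries, which may be in part technical. DESeq2 1.42.0 and other settings were tried as alternatives, and the code was tested on simulated data. Pathway genes named are the called members of each list with the largest changes (at most 3 in each direction, non-overlapping libraries and a mean of at least 100 in the higher group), those called between the deletion groups, the 3 nearest genes of a member, and others chosen after their values were seen (Adam17, Errfi1, Cbl, Egr1, Egf, Epgn, Esr1, Akt1, Ptpn11, Ier3 and cell type markers). The members and lists were chosen with earlier results of these data known. A few genes that the rule names are not reported here.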

Additional observations from a re-analysis of the deposited data

How the results depend on the processing

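Each comparison was refitted under 18 alternatives. All 10 genes were called for LATS1/2-KO against control in every refit except 2, namely 8 genes when at least 10 counts were required in every library, which removed Ereg and Erbb4 from the test, and 9 under glmTreat, which lost Btc. Of 534 single-gene values, 516 kept their direction and side of the threshold. The reversals all lay between the deletion groups. Egfr was at -0.016 without LATS1/2-KO replicate 1 and spanned -0.016 to 0.235 over the refits without 1 library. Areg was at -0.015 with upper-quartile factors, at -0.346 without LATS1/2-KO replicate 2 and at -0.012 without replicate 3, and spanned -0.346 to 0.714. Between the deletion groups, where 0 members were called, DESeq2 called 2, and 1 was called without a low-count filter and with the 2 compared groups alone (Ereg each time, with Erbb4 as the other under DESeq2). Without 1 library the number was 0 to 1. Over all genes, glmTreat lowered the calls from 6705 to 4005 for LATS1/2-KO against control, from 7248 to 4708 for LATS1/2-Sox9-KO against control and from 719 to 32 between the deletion groups, as it tests a fold change of 2 itself, and DESeq2 gave 1233 for the latter. Without 1 library that count ranged from 201 (LATS1/2-Sox9-KO replicate 2) to 1079 (LATS1/2-KO replicate 1), and it was 278 without LATS1/2-KO replicate 3 and 446 and 475 without LATS1/2-Sox9-KO replicates 1 and 3; the cause was not tested. Replicate numbers are shared between groups in the labels only. Deviations of same-numbered libraries correlated from -0.07 to 0.17, over 0.1 in 2 of 9 pairs, and a replicate block gave 6521, 601 and 7087 calls for LATS1/2-KO against control, between the deletion groups and for LATS1/2-Sox9-KO against control, with 10, 0 and 8 members. No scaling moved the median of all genes by more than 0.1 on the log2 scale. Counting error is small for most members, and only Ereg in control and Erbb4 in the deletion groups rest on few counts.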
